A study of Mus musculus with 474 samples.

Results

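The genes described here are 7 genes known from brown fat (Ucp1, Cidea, Otop1, Slc27a2, Dio2, Kng2 and Zic1) as they were measured by RNA-seq in mouse skeletal muscle. They are 7 of the 20612 genes in the count table, and all 7 passed the filter on low counts that left 18823 genes for testing. They were selected by name, from the way several of them varied together between animals and from the difference in Ucp1 between the sexes. Their levels, the shares of animals that express them, their differences between the sexes and their correlations are therefore given as a description, with no test. Differences between generations, between blocks of libraries and in the size of the sex difference across generations were tested across all genes. Levels by sex and generation were known when the genes were chosen, so the tests that involve generation are not independent of that choice.

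Each library came from 1 Diversity Outbred (DO) mouse, an outbred stock that descends from inbred founder strains, so that no pair of animals has the same genome. All animals were adult and were sensitized with a high-fat, high-sugar (HFHS) diet, labelled 45percent fat, so there was no group on another diet. The labels call the tissue skeletal muscle and do not name the muscle. The 10 groups were the females, 48, 45, 49, 46 and 47 animals, and the males, 46, 48, 50, 47 and 48 animals, under the labels 17, 18, 19, 21 and 23, which are read here as outbred generations, although the study's text names only some of these numbers.

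Brown fat is a tissue that burns fuel to make heat. Noradrenaline from sympathetic nerves acts on beta-adrenergic receptors of the brown adipocyte, cyclic AMP rises, stored triglyceride is broken down, and the fatty acids both fuel the mitochondria and open uncoupling protein 1, which lets protons return across the inner membrane without making ATP. Muscle fibres do not normally use this protein, and brown or beige adipocytes in and between muscles are a known site of it in mice. In a bulk library, fewer cells of a type and less RNA per cell cannot be told apart, so a level of Ucp1 does not say how many such cells a sample held.

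Total counts of the libraries ranged from 35.9 M to 165.7 M read ends with a median of 79.3 M, and the median was 79.3 M in each sex. Levels are in CPM, counts scaled to library depth with the TMM factors of edgeR. The tissue label held against its markers, as all 9 muscle markers examined were present, with a median of 11650 TPM (a level per transcript length) for the creatine kinase gene Ckm. By limits of 10 CPM for Xist (female) and Ddx3y (male), and of 0.1 CPM for Ddx3y in females, 5 libraries did not have the sex-linked pattern of their label throughout. Females DO153 and DO347 had 0.329 and 0.173 CPM of Xist and no Ddx3y. Female DO048 had the female pattern, with 122 CPM of Xist, and was included for 0.133 CPM of Ddx3y, just over the limit. Male DO193 had 93.7 CPM of Ddx3y and also 13.4 CPM of Xist, and male DO308 had neither. In these libraries Ucp1 lay between 0 and 0.512 CPM. Values without these 5 are given where they differ. A further library, DO022 of the females of generation 17, held 763 CPM of the albumin gene Alb against a median of 0.166 CPM over all libraries, and it was the highest of all in Slc27a2 and in Kng2, both of which liver also expresses.

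The stretches around the starts of 4 of the genes are shown because Ucp1, Otop1 and Slc27a2 were high in many of the same libraries, whereas Dio2 followed them less closely. They were taken from RefSeq on build GRCm38.p6, which had an entry for 6 of the 7 genes, and each holds 300 bases in the direction of the gene, most of them before the annotated start and the last 50 from the start on. Ucp1 lies at chr8:83290098-83290397 on the plus strand, Otop1 at chr5:38277154-38277453 on the plus strand, Slc27a2 at chr2:126552774-126553073 on the plus strand and Dio2 at chr12:90738989-90739288 on the minus strand. The RefSeq starts of these genes differ from the gene starts in the files. Capitals mark matches, on either strand, to the cyclic AMP response element TGACGTCA or its shorter form TGACG, to the nuclear receptor half-site AGGTCA, to the box TATAAA that positions the polymerase, and to the Sp1 box GGGCGG.
Ucp1: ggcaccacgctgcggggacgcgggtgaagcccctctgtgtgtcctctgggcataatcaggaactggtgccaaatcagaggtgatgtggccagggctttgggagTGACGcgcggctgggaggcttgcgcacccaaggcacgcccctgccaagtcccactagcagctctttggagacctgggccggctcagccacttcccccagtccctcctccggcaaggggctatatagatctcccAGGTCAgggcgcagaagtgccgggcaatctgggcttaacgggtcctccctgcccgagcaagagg
Otop1: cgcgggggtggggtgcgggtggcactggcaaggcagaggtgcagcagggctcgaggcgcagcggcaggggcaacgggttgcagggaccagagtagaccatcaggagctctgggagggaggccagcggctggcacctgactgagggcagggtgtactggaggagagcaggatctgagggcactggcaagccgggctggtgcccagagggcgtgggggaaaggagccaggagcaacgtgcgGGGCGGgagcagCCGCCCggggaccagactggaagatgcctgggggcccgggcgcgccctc
Slc27a2: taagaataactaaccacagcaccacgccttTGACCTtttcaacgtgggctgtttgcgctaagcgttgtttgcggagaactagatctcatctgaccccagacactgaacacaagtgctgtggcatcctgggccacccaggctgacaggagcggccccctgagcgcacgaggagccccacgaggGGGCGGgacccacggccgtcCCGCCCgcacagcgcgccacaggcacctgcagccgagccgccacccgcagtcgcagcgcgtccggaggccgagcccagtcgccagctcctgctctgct
Dio2: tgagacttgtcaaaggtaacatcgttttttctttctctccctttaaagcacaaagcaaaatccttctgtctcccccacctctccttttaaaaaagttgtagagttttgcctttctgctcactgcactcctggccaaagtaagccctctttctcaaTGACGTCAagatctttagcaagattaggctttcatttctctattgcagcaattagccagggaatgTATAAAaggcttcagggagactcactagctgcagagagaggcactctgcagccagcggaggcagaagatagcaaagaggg
Dio2 held the whole cyclic AMP element, starting 95 bases before the start of the gene, where both of its TGACG matches overlap it, and a TATAAA match 30 bases before the start. Ucp1 held a TGACG match 147 bases and an AGGTCA match 14 bases before the start, Slc27a2 an AGGTCA match 220 bases before it with 2 matches to GGGCGG, and Otop1 only matches to GGGCGG, also 2. Of all 32851 promoters of this length, 1.79% held TGACGTCA, 20.8% TGACG, 16.3% AGGTCA, 13.6% TATAAA and 35.7% GGGCGG. The GC content was 64.7% for Ucp1, 71.7% for Otop1, 65.3% for Slc27a2 and 44.7% for Dio2, against a median of 52.7%. These are matches of letters and not sites shown to be bound.

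Ucp1 (ENSMUSG00000031710, chromosome 8, 83290352 to 83298452, build GRCm38, plus strand) encodes uncoupling protein 1 itself. It was close to 0 in most animals of both sexes. Females ranged from 0 to 203.3 CPM with a median of 0.181 CPM and a mean of 9.96 ± 30.5 CPM (SD over all females, as for the other genes). Males ranged from 0 to 76.5 CPM with a median of 0.0447 CPM and a mean of 1.10 ± 6.76 CPM. The sexes overlapped over the whole male range, and the means lay far above the medians because few libraries carried most of the signal: the 25 libraries with the most Ucp1, 5.27% of all, held 83.9% of its summed CPM. Of these 25, 23 were female. The count was 0 in 138 libraries, 49 female and 89 male, where 3 counts, the most that a count of 0 allows, would stand for 0.0250 to 0.0828 CPM.

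The 6 highest libraries were all female, with 203.3 CPM in DO268 and 143.4 CPM in DO233 of generation 19, 188.3, 157.1 and 146.1 CPM in DO154, DO158 and DO160 of generation 18, and 124.3 CPM in DO025 of generation 17. The highest males were DO511 with 76.5 CPM and DO532 with 65.8 CPM, both of generation 23. Ucp1 reached 1 CPM in 57 females, or 24.3% (exact 95% interval 18.9 to 30.3%), and in 22 males, or 9.21% (5.86 to 13.6%). Intervals and floors of this kind cover counting error only. In females the share was 22.9, 24.4, 20.4, 17.4 and 36.2% in generations 17, 18, 19, 21 and 23, and in males it was 8.70, 4.17, 8.0, 8.51 and 16.7%. Every generation had the higher share in females, and generation 23 had the highest share of both sexes.

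Cidea (ENSMUSG00000024526, on chromosome 18), a protein of the lipid droplet surface that helps droplets fuse in brown adipocytes, was detected in every library. Females ranged from 0.164 to 35.5 CPM with a median of 0.846 CPM and a mean of 3.10 ± 6.27 CPM, and males from 0.192 to 14.4 CPM with a median of 0.976 CPM and a mean of 1.35 ± 1.79 CPM. Mean and median thus put the sexes in opposite order, as the male median was the higher and the female mean was. Likewise 47.7% of males and 39.1% of females reached 1 CPM, while 21 of the 25 highest libraries were female. The 3 highest were DO154 with 35.5, DO268 with 30.4 and DO161 with 28.0 CPM, all female.

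Otop1 (ENSMUSG00000051596, chromosome 5, 38275972 to 38304217, plus strand), a proton channel of the otopetrin family, showed the same form. Females ranged from 0.0965 to 10.3 CPM with a median of 0.465 CPM and a mean of 1.05 ± 1.71 CPM. Males ranged from 0.110 to 4.79 CPM with a median of 0.454 CPM and a mean of 0.585 ± 0.557 CPM. The medians were nearly equal, and the difference in means lay in the upper end, where 21 of the 25 highest libraries were female. At 1 CPM the shares were 18.7% of females and 8.79% of males, and at 0.5 CPM they were 41.7 and 43.1%.

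Slc27a2 (ENSMUSG00000027359, chromosome 2, 126552407 to 126588243, plus strand) encodes a fatty acid transport protein that also activates very long-chain fatty acids, best known from liver and kidney. It was the scarcest of the 7, with a count of 0 in 109 females and 119 males. Females ranged from 0 to 9.90 CPM with a median of 0.0199 CPM and a mean of 0.218 ± 0.765 CPM, and males from 0 to 1.31 CPM with a median of 0.00866 CPM and a mean of 0.0484 ± 0.126 CPM. The female maximum was DO022, the library with liver RNA markers, at 0.732 CPM of Ucp1. Without it the female mean was 0.177 ± 0.429 CPM and the maximum 2.57 CPM, in DO160. At 1 CPM there were 18 females and 1 male.

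Dio2 (ENSMUSG00000007682, chromosome 12, 90724552 to 90738438, minus strand) encodes the deiodinase that turns thyroxine into the active thyroid hormone inside the cell, and both brown fat and muscle express it. It was spread evenly over the animals. Females ranged from 0.753 to 12.7 CPM with a median of 3.35 CPM and a mean of 3.67 ± 1.71 CPM, and males from 0.943 to 5.93 CPM with a median of 2.47 CPM and a mean of 2.62 ± 0.892 CPM. Only 1 library of each sex fell under 1 CPM, and the 25 highest libraries held 12.3% of the summed CPM. The highest were DO161, DO154 and DO160, females of generation 18, with 12.7, 12.3 and 11.2 CPM, which were also among the highest in Ucp1. Dio2 overlaps the gene Gm26512 on the other strand by 100 exonic bases, and whether counting used strand was not given in the sources used here.

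Kng2 (ENSMUSG00000060459, chromosome 16, 22985854 to 23029482, minus strand), a kininogen, from which the vasoactive peptide bradykinin is cut, was low throughout. Females ranged from 0 to 3.30 CPM with a median of 0.131 CPM and a mean of 0.222 ± 0.336 CPM, and males from 0 to 0.734 CPM with a median of 0.0596 CPM and a mean of 0.0857 ± 0.0994 CPM. It reached 1 CPM in 6 females and in no male. The count was 0 in 16 females and 41 males. Its highest library was again DO022, without which the female mean was 0.208 ± 0.270 CPM.

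Zic1 (ENSMUSG00000032368, chromosome 9, 91358058 to 91365810, minus strand), a zinc finger transcription factor used as a marker that separates classical brown from white and beige adipocytes, was the only one of the 7 with the higher mean in males. Females ranged from 0.169 to 3.46 CPM with a median of 0.980 CPM and a mean of 1.10 ± 0.574 CPM. Males ranged from 0.0617 to 4.51 CPM with a median of 1.27 CPM and a mean of 1.38 ± 0.659 CPM. Male medians lay above female medians in all 5 generations, and 67.4% of males against 48.9% of females reached 1 CPM. Of the 25 highest libraries, 19 were male. Zic1 shares 60 exonic bases with Zic4 on the other strand, so its counts carry that uncertainty, although Zic4 itself had a median of only 0.0590 CPM.

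**Figure D1:**
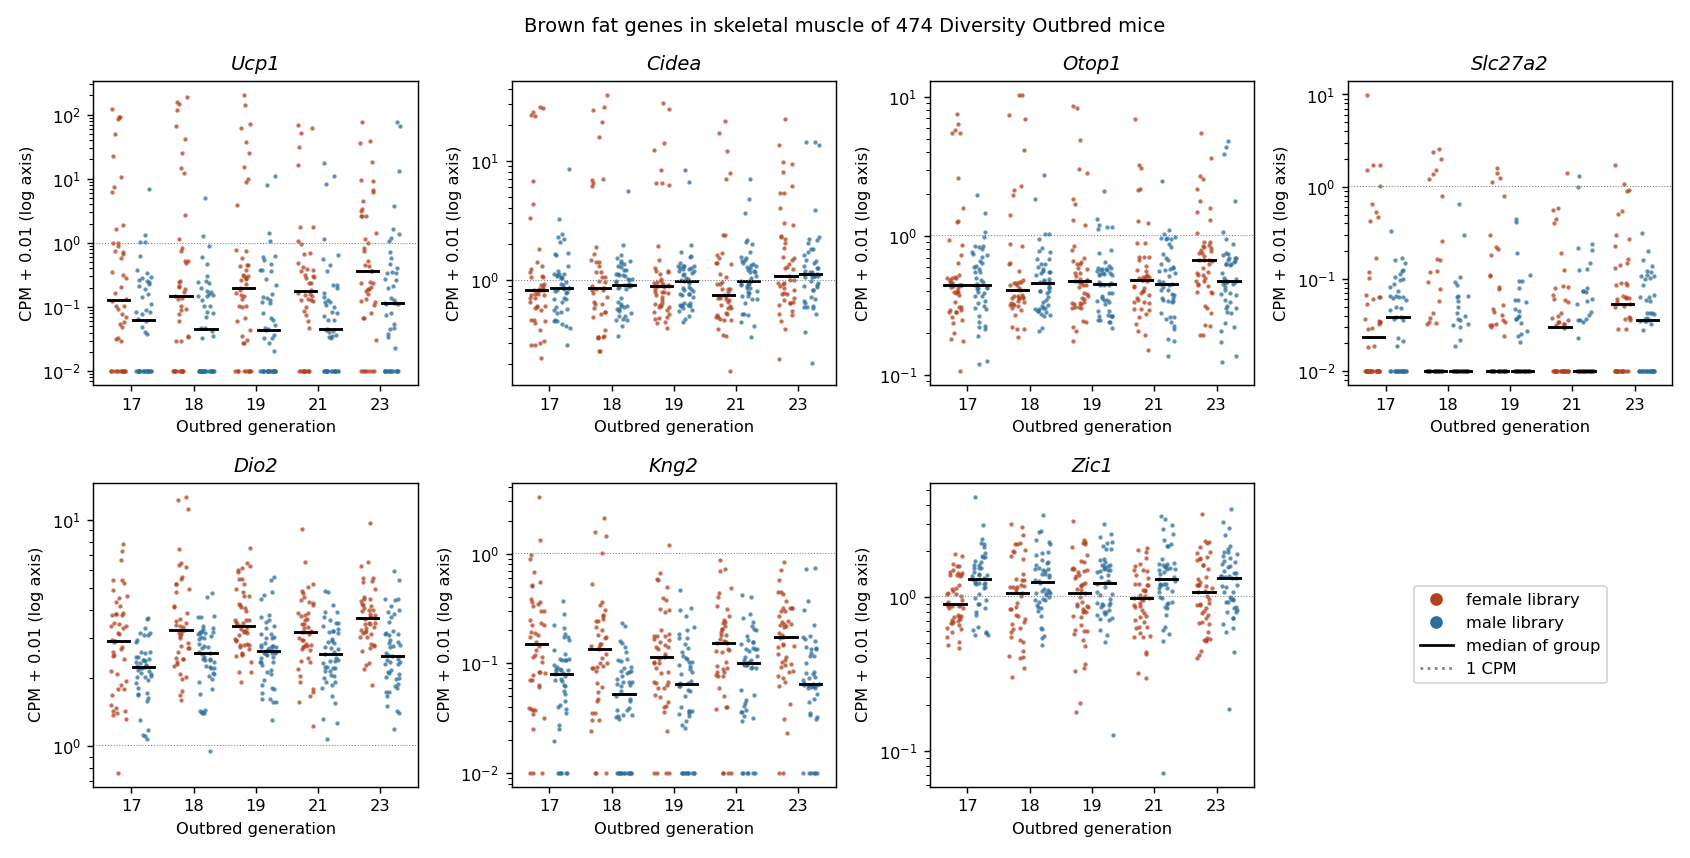
Level of each gene in each library by outbred generation and sex, as CPM + 0.01 on a log axis. Each point is 1 library, black bars are medians of the 10 groups and the dotted line is 1 CPM. Ucp1 and Slc27a2 lie near the floor with a sparse upper tail that is mostly female, Dio2 and Zic1 form compact clouds, and DO022 is the single point of Slc27a2 at 9.90 CPM.

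Per exon length, the order of the medians over all libraries was Cidea at 2.06 TPM, Dio2 at 1.25, Zic1 at 0.503, Otop1 at 0.334, Ucp1 at 0.164, Kng2 at 0.0783 and Slc27a2 at 0.00958. The order of the highest values was a different one, led by Ucp1 with 336.7 TPM. Of the 10 sex-by-generation groups ranked by median, all 5 female groups stood above all 5 male groups for Ucp1, Dio2 and Kng2, and all 5 male groups above all 5 female groups for Zic1. For Cidea, Otop1 and Slc27a2 the sexes were mixed in that order. Neighbours in the order did not differ beyond their spread, since the quartile ranges overlapped in all 9 neighbouring pairs for each of the 7 genes.

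**Figure D2:**
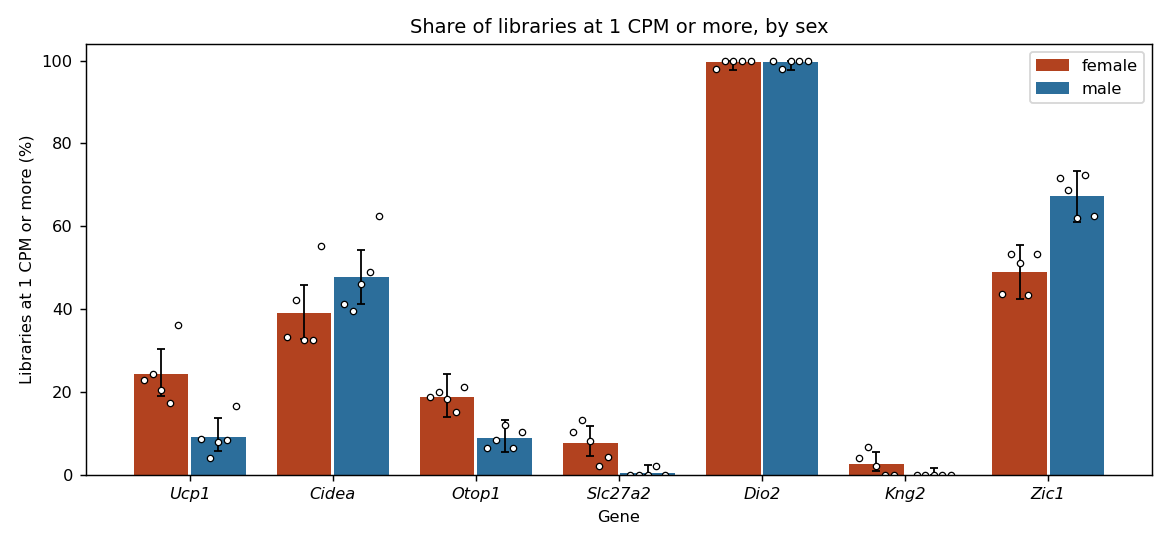
Share of libraries at 1 CPM or more, in percent, for each gene in females and males. Bars are all libraries of a sex with exact 95% binomial intervals, and open circles are generations 17, 18, 19, 21 and 23 from left to right. Ucp1, Otop1, Slc27a2 and Kng2 have the taller female bar, Cidea and Zic1 the taller male bar, and Dio2 is at 99.6% in both.

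In the edgeR fit across all genes with generation as covariate, the log2 differences, male minus female, were -3.79 for Ucp1 (SE 0.38), -2.03 for Slc27a2 (SE 0.26), -1.36 for Kng2 (SE 0.15), -1.20 for Cidea (SE 0.15), -0.83 for Otop1 (SE 0.12), -0.49 for Dio2 (SE 0.05) and 0.32 for Zic1 (SE 0.07). This contrast helped to choose the genes, so these are sizes and not calls. The median difference over all genes was -0.01. Without the 5 libraries outside the limits on Xist and Ddx3y the differences ran from -3.78 for Ucp1 to 0.32 for Zic1. Without DO022 those of Slc27a2 and Kng2 were -1.80 and -1.29.

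White adipocyte markers differed between the sexes too and were measured in the same libraries. Of 11 listed genes, 10 passed the edgeR test as lower in males, against 30.6% of all genes, among them Cfd (complement factor D, log2 -1.24, SE 0.10), Adipoq (adiponectin, -0.54, SE 0.09) and Plin1 (perilipin 1, -0.55, SE 0.09), and Lep (leptin) was higher in males (0.55, SE 0.13). Their summed level ranged from 457.2 to 2296 CPM in females, with a median of 862 CPM, and from 390 to 1533 CPM in males, with a median of 696.01 CPM. With the mean standardised log level of these markers as covariate, the differences were -0.91 for Ucp1 (SE 0.28), -0.91 for Kng2 (SE 0.15), -0.60 for Slc27a2 (SE 0.26), -0.43 for Dio2 (SE 0.05) and 0.21 for Zic1 (SE 0.07). Those of Cidea and Otop1 turned to 0.17 (SE 0.11) and 0.07 (SE 0.09). Markers of other cells are given beside all genes, of which 24.4% passed as higher and 30.6% as lower in males. The 5 endothelial markers were all higher in males, and none of 5 macrophage markers passed the test. Of 5 Schwann cell markers 2 were lower in males, which is near the share of all genes, and 2 of 3 erythroid markers were higher. Cd79a of B cells, Alb and Cyp2e1 of hepatocytes, Epcam of epithelium and Th of sympathetic nerves were lower. None of the 3 kidney markers was among the genes analysed here. The part of any of these cells in the sex difference was not tested.

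Ucp1 was chosen with its levels by sex and generation known. Its sex difference passed the edgeR interaction test with generation (4 terms, adjusted p = 4.52e-05), as did 0.531% of all genes. In the fit with separate differences per generation it was -5.03 (SE 0.80) in generation 17, -6.30 (SE 0.84) in 18, -4.48 (SE 0.74) in 19, -2.54 (SE 0.70) in 21 and -0.47 (SE 0.65) in 23. Female means were 10.4, 17.3, 12.0, 5.29 and 4.89 CPM in the 5 generations, whereas female medians were 0.120, 0.138, 0.187, 0.166 and 0.349 CPM, so that generation 23 had the lowest mean and the highest median. Male means were 0.313, 0.228, 0.531, 0.896 and 3.54 CPM. The male mean of generation 23 rested on DO511 and DO532. Leaving out either kept the call, with adjusted p of 0.00110 and 0.000648, and leaving out both ended it (0.1). On the deposited scores, a transform that draws low values together, the test did not pass either (limma, adjusted p = 1.00).

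No other member passed this test, the next being Slc27a2 with an adjusted p of 0.156, Cidea with 0.369 and Kng2 with 0.455. Their differences are given beside those of Ucp1 without a claim that they varied. For Cidea they were -1.60, -2.0, -1.26, -0.73 and -0.44 in generations 17, 18, 19, 21 and 23, with SE of 0.32 to 0.34. For Otop1 they were -1.03, -1.31, -0.96, -0.55 and -0.32, with SE of 0.26 to 0.27. For Slc27a2 they were -2.99, -3.05, -2.06, -0.16 and -1.86, with SE of 0.54 to 0.58, and for Kng2 -1.83, -2.23, -1.05, -0.81 and -0.95, with SE of 0.33 to 0.35. The values of generation 17 include DO022, without which the female mean of that generation was 0.187 CPM in place of 0.389 for Slc27a2 and 0.229 in place of 0.293 for Kng2, and the fitted differences per generation were not computed without it. In these 4 genes, as in Ucp1, the difference furthest below 0 was that of generation 18, with DO022 included. Dio2 stayed between -0.65 and -0.34 and Zic1 between 0.19 and 0.51.

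Between generations, with sex as covariate, 1 of the 7 genes passed the test, against 7.56% of all genes. This was Dio2 (adjusted p = 0.0174), whose mean was 2.74 ± 1.3 CPM in generation 17 (n = 94), 3.33 ± 2.02 in 18 (n = 93), 3.28 ± 1.25 in 19 (n = 99), 3.03 ± 1.20 in 21 (n = 93) and 3.33 ± 1.33 in 23 (n = 95). The fitted range between the lowest generation, 17, and the highest, 23, was 0.29 on the log2 scale, smaller than the spread between animals. Ucp1 had an adjusted p of 0.0506 by the same edgeR test, which passed the threshold without DO268 (0.0355) and moved far from it without DO511 (0.582) or DO532 (0.446). Dio2 passed in all 13 alternative fits of this comparison. The other 5 genes had adjusted p of 0.369 to 0.957.

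For want of a batch in the labels, the library numbers were divided into 5 blocks, runs of up to 96 numbers that restart after a gap. Ucp1 (adjusted p = 0.0441) and Cidea (0.0347) passed the edgeR test between blocks, against 47.4% of all genes, and the other 5 did not. By limma on the deposited scores neither Ucp1 (adjusted p = 0.667) nor Cidea (0.647) passed. Mean Ucp1 was 4.69, 4.60, 7.82, 6.62 and 3.66 CPM in the 5 blocks, with SD of 14.7 to 32.7 CPM, so that the blocks overlapped widely. Within each block alone, the male minus female difference of Ucp1 lay between -5.32 and -3.21.

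Pairs of members differed widely in how closely they varied together over the libraries. Each correlation is a description over animals that share a stock, a diet and the library blocks. Spearman rho of CPM was 0.44 for Ucp1 with Cidea, 0.42 with Slc27a2, 0.39 with Otop1, 0.29 with Kng2, 0.17 with Dio2 and -0.11 with Zic1. Pearson r of log2(CPM + 0.1) was 0.84, 0.78, 0.78, 0.50, 0.31 and -0.17 for the same pairs. The log scale gives weight to the few libraries with high levels, and ranks to the many with low ones. Over the 6 pairs among Ucp1, Cidea, Otop1 and Slc27a2, rho ran from 0.36 to 0.44 and r from 0.71 to 0.84. Over all 21 pairs, the median was 0.18 for rho and 0.33 for r.

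**Figure D3:**
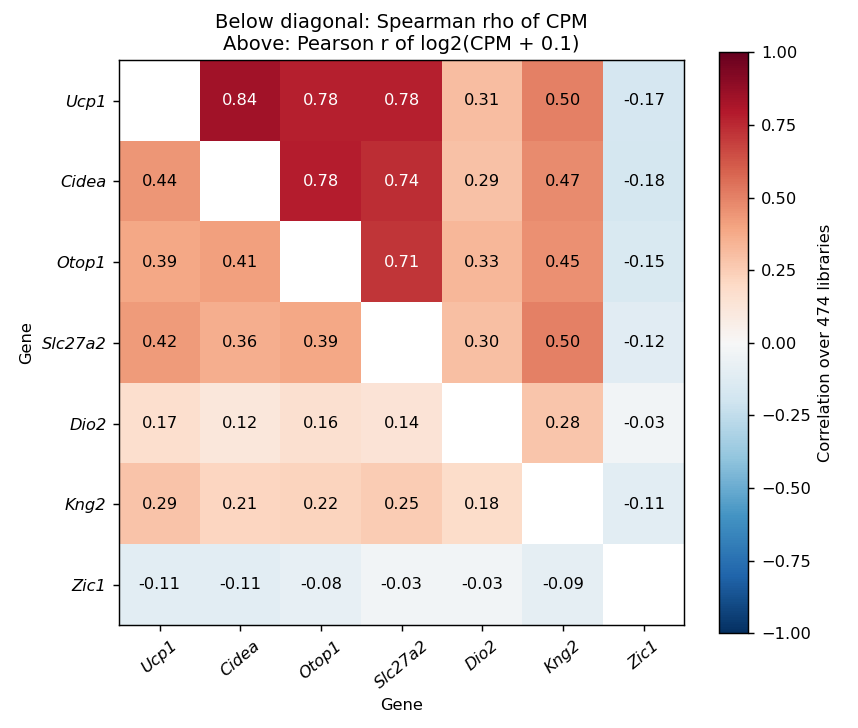
Correlation of each pair of the 7 genes over all libraries, with Spearman rho of CPM below the diagonal and Pearson r of log2(CPM + 0.1) above it, on a colour scale from -1 to 1. Ucp1, Cidea, Otop1 and Slc27a2 form a square of r from 0.71 to 0.84, and the row of Zic1 is between -0.18 and -0.03.

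The relation among these 4 genes was closer in females than in males, as r ran from 0.81 to 0.90 in females alone and from 0.37 to 0.68 in males alone. The difference was not tested. By rank the relation was looser throughout: the median rho of the 6 pairs was 0.40 in all libraries, 0.53 in females alone and 0.26 in males alone, where it ran from 0.16 to 0.31. After sex and generation were removed, r ran from 0.70 to 0.85, and after the white adipocyte score was also removed from 0.58 to 0.77. The median rho was 0.39 after the first step and 0.24 after the second, where it ran from 0.20 to 0.36. Within single blocks the 6 pairs had r between 0.57 and 0.88 and rho between 0.16 and 0.61. Without the 2 libraries farthest from the median of the first gene of each pair, r ran from 0.69 to 0.83, and without DO022 from 0.74 to 0.84. Without the 5 libraries outside the limits on Xist and Ddx3y, r ran from 0.72 to 0.84.

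The shared upper end can also be counted. Of the 25 libraries with the most Ucp1, 22 were among the 25 with the most Cidea, 22 with Otop1, 18 with Slc27a2, 14 with Kng2 and 12 with Dio2, which is 88, 88, 72, 56 and 48% of either list. None was among the 25 with the most Zic1. For scale, 25 libraries are 5.27% of all, so the absence for Zic1 is not read as a result. The shared libraries restate the joint variation that helped to choose the genes. Cidea and Otop1 shared 23 of 25. Counted by library, 106 libraries had 1 of the 7 genes at 1 CPM or more, 206 had 2, 88 had 3, 41 had 4, 22 had 5, 10 had 6 and 1 had all 7. Females were 16 of the 22 libraries with 5 genes, 9 of the 10 with 6 and the 1 with 7.

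**Figure D4:**
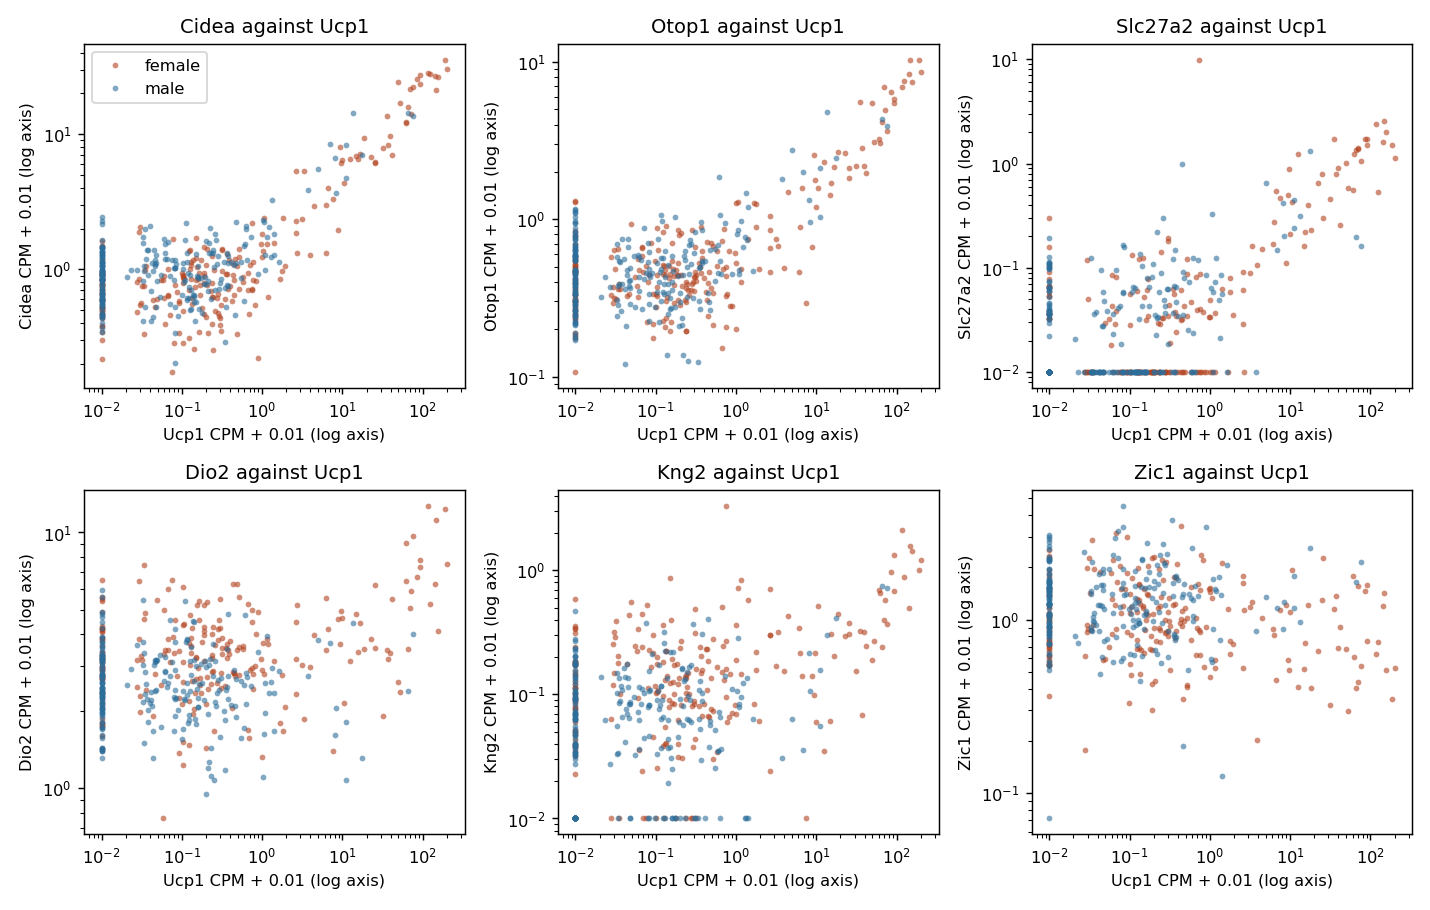
Level of the other 6 genes against Ucp1, each point 1 library, both axes CPM + 0.01 on a log scale, females and males in different colours. Cidea and Otop1 rise with Ucp1 above about 1 CPM of Ucp1 and lie in a flat cloud below it, Slc27a2 does so with more spread, DO022 stands apart for Slc27a2 and Kng2, and Zic1 shows no rise.

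Single libraries show the same. DO154, with 188.3 CPM of Ucp1, had 35.5 CPM of Cidea, 10.3 of Otop1, 1.51 of Slc27a2, 12.3 of Dio2, 0.999 of Kng2 and 0.338 of Zic1. The male DO511, with 76.5 CPM of Ucp1, had 13.6 CPM of Cidea and 3.89 of Otop1 but 0.151 of Slc27a2 and 2.14 of Zic1. DO078, a male of generation 17 with the most Zic1 (4.51 CPM), had 0.0727 CPM of Ucp1 and 0.521 of Cidea. The white adipocyte gene Adipoq was 54.6 CPM in DO154, 69.8 in DO268, 23.7 in DO511 and 36.0 in DO532, against a median of 15.6 CPM over all libraries. Not all genes of that list went this way, as Plin4 was 403.1 CPM in DO532 and 360.2 in DO191 against a median of 490.8 CPM.

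The genes most like the members were ranked by the median of their 7 rho values. The 20 highest were Slc36a2 (0.42), Ces1f, Prkar2b, Arxes2, Chdh, Nat8l, Cdo1, Cyp4v3, Nrg4, Pygl, 4931406C07Rik, Plin1, Sfxn1, Pck1, Kcnk3, Lgals12, Rbm47, Car5b, Fasn and Lipe (0.38). Slc36a2, an amino acid transporter of brown adipocytes, Nrg4, a secreted growth factor, and Kcnk3, a potassium channel, stand on the list of brown and beige fat markers, Prkar2b, a regulatory subunit of protein kinase A, on that of adrenergic signalling, and Plin1 and Lipe (hormone-sensitive lipase) on that of white adipocytes. None of the 20 had a positive rho with Zic1, for which they ran from -0.28 to -0.11. The 3 lowest were Htatsf1 (-0.28), Ensa (-0.27) and Vdac2 (-0.25).

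Taken one by one, the members had different nearest genes. Ucp1 was nearest to Pck1 (rho 0.47), the enzyme that feeds glycerol synthesis in fat, Nat8l (0.47), Cdo1, Cyb5a and Klb (0.45), the co-receptor of the hormone FGF21. Cidea was nearest to Agpat2 (0.57), Lipe, Kcnk3, Fabp4 and Adig, and Otop1 to Plin1 (0.59), Prkar2b, Scd1, Trarg1 and Chdh. Slc27a2 was nearest to Prkar2b (0.42) and next to Ucp1 itself (0.42), then to Chdh, Slc36a2 and Apoc1. Of the 20 genes nearest to each, the white adipocyte list holds 2 for Ucp1, 3 for Cidea, 2 for Otop1 and 1 for Slc27a2, and also 1 for Kng2.

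Dio2 was nearest to Tspan12 (0.43), Lum, Mtpn, Ddx3x and Plxdc2, none of which is on a fat list. Kng2 was nearest to Ehhadh (0.44), Masp1, Fah, Xist and Ypel1, of which Ehhadh, Masp1 and Ypel1 lie on its own chromosome, the starts of Masp1 and Ehhadh 0.464 and 1.22 Mb away. All 5 genes nearest to Zic1 lie on chromosome 9, led by the overlapping Zic4 (0.54), then 9430037G07Rik (0.46), 9330159M07Rik, Trim43b and Gm19498, whose starts lie 2.27 to 2.76 Mb away. Of the 20 genes nearest to Zic1, 11 lie on its chromosome, which holds 5.56% of the other genes tested. For Kng2 this was 4 of 20 against 2.88%, for Ucp1 and Dio2 2 of 20 each, for Otop1 and Slc27a2 1 each, and for Cidea none.

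The rest of the brown fat programme was counted over 3 lists of 50 genes, of which 47 were tested. Of these, 39 passed the test between the sexes, 18 higher and 21 lower in males, with a median log2 difference of -0.05. Of all 18823 genes, 55.0% passed this test, 24.4% higher and 30.6% lower in males. Among 13 regulators, 7 were higher and 4 lower in males. Irf4, a transcription factor of lipid handling and also of lymphocytes, differed most (log2 -0.995, SE 0.0948), at 2.81 ± 4.19 CPM for females against 1.40 ± 1.40 CPM for males. Ppargc1b (-0.27, SE 0.03) and Pparg (-0.15, SE 0.05), the master factor of adipocytes, were lower in males. Ppargc1a (0.23, SE 0.06) and Prdm16 (0.16, SE 0.04), which steer cells to the brown fate and to mitochondrial growth, were higher in males.

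Among 22 tested markers and effectors, 13 were lower and 6 higher in males. Slc36a2 (-0.86, SE 0.09), Lhx8 (-0.82, SE 0.17), Kcnk3 (-0.71, SE 0.11), Clstn3 (-0.68, SE 0.08) and Nrg4 (-0.47, SE 0.07) were lower. Of those higher in males, Tmem26, a surface marker of beige cells, differed most (0.56, SE 0.07), and Cox7a1 (0.14, SE 0.02), Cox8b (0.07, SE 0.02), Cpt1b (0.16, SE 0.02) and Fabp3 (0.22, SE 0.05) are genes that muscle fibres express strongly, with medians of 382.1, 1033, 214 and 1121 TPM. Of 12 adrenergic genes, 5 were higher and 4 lower in males. Adrb3, the beta-3 receptor of adipocytes, had a female mean of 2.76 ± 3.64 CPM and a male mean of 0.864 ± 1.19 CPM (log2 -1.68, SE 0.14), with an adjusted p of 2.73e-26 by edgeR.

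Between generations 7 of these 47 genes passed, among them Ebf2, Ppargc1a, Ppargc1b, Zfp516, S100b and Pde4d, against 7.56% of all genes. Among 12 genes of the uncoupling family and other routes of heat, 6 were higher and 4 lower in males, with Sln (sarcolipin, the regulator of the calcium pump in muscle) at log2 -0.88 (SE 0.11) and Ucp3, the muscle form of the uncoupling proteins, at 0.18 (SE 0.05). Ucp3 and Ckb passed between generations. Of the 16 listed relatives of the members, 8 were among the genes analysed here. Dio3, which inactivates thyroid hormone, was higher in males (0.50, SE 0.11), Slc27a5 was lower (-0.35, SE 0.14) and Slc27a1, the transporter of muscle, had means of 69.3 ± 16.1 CPM for females and 72.6 ± 14.6 CPM for males (0.07, SE 0.03, adjusted p = 0.0386 by edgeR).

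The listed genes differed in how they followed Ucp1. On the log scale 129 of 18822 genes, or 0.685%, had r of 0.5 or more with Ucp1. They included 6 of the 22 markers and effectors (Kcnk3, Nrg4, Letmd1, Gk, Clstn3 and Slc36a2), 4 of the 12 adrenergic genes (Adrb3, Adcy3, Prkar2b and Pde3b), 2 of the 13 regulators (Pparg and Irf4) and 8 of the 11 white adipocyte genes. Letmd1, a mitochondrial protein of brown fat, had r = 0.75, Kcnk3 0.74 and Adrb3 0.66. Prdm16 had 0.05, Ppargc1a -0.10, Ucp3 -0.02 and Cox7a1 -0.12, and the highest of the 9 muscle markers was Myh7 with 0.15. Lhx8, which like Zic1 marks classical brown fat, had r = 0.49 with Ucp1 and -0.19 with Zic1.

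**Figure D5:**
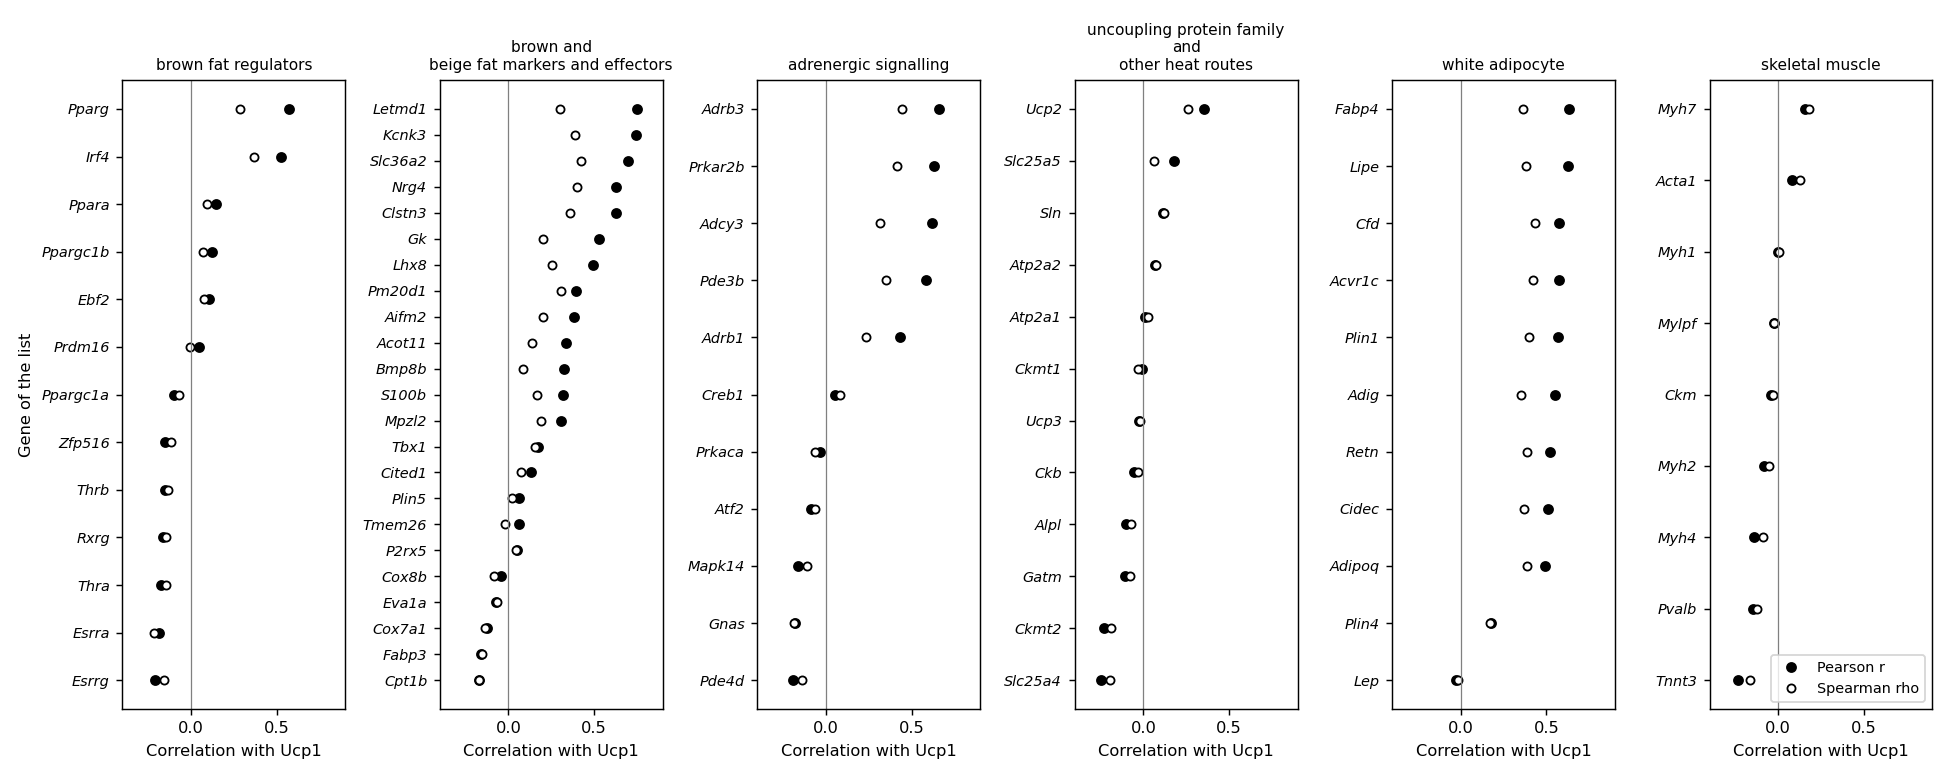
Correlation of listed genes with Ucp1 over all libraries, 1 panel a list (1 adrenergic gene is not shown), with Pearson r of log2(CPM + 0.1) as filled and Spearman rho of CPM as open circles. Letmd1, Kcnk3, Slc36a2, Adrb3 and most white adipocyte genes lie on the right, whereas Ppargc1a, Prdm16, Cox7a1, Ucp3 and the muscle genes lie near 0.

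Markers of other tissues moved with Ucp1 in part. The B cell gene Cd79a had r of 0.45 with Ucp1, while Ighm had -0.04, and Cd79a was highest, at 47.5 CPM, in DO191, a female of generation 18 with 66.6 CPM of Ucp1. In DO268, the library with the most Ucp1, Cd79a was 0.0518 CPM, under the median of 0.0612 CPM. Th, the enzyme of noradrenaline synthesis and a marker of sympathetic nerves, had r = 0.35 at a median of 0.0262 CPM. The hepatocyte gene Cyp2e1, which fat also expresses, had 0.51, and Alb 0.23. Epcam, an epithelial gene, had 0.33, and the 5 Schwann cell markers lay between -0.14 and -0.05. The part of these cells in the joint variation of the members was not tested.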

How the data were processed

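Poly(A) RNA of skeletal muscle was sequenced in 1 library per animal. Per the study's methods, the authors joined both mates, mapped each read on its own to the pooled transcripts of the founders and estimated expected counts with EMASE as run by GBRS, after which genes that few samples express were removed. Aligner and strand use were not given in the sources used here. The deposited scores are a variance stabilising transform that the authors made with DESeq2, and they were used here only as an alternative with limma. Positions are on GRCm38, as the submitters' processing notes give it, and equalled GENCODE M21 for 99.2% of genes. No column of the authors' own comparisons was used.

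Expected counts as deposited were rounded, and genes that failed filterByExpr (minimum count 10) were removed, which left 18823 of 20612. Counts were fitted with TMM factors (0.871 to 1.29) in edgeR 4.0.16 (R 4.3.3, quasi-likelihood F-test, Benjamini-Hochberg adjustment over all genes tested, threshold 0.05). Sex was fitted with generation, generation with sex, their interaction with both, and library block with sex and generation. Alternatives used limma 3.58.1 and DESeq2 1.42.0, other filters and scalings, and fits without single libraries. CPM and log2(CPM + 0.1) gave levels and correlations in Python 3.11.15. Only the sex term of the edgeR fit was run on simulated counts, and the generation, interaction and block tests were not. Blocks were runs of 96 library numbers, restarted after a gap over 3, since a gap alone gave too few blocks for the planned test.

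Groups came from the sex and number in the sample titles, and the study's wave is not in the labels. The p-values set differences against the spread between animals, which were treated as independent. Kinship and wave were not in the fits. The members, the gene lists and the marker lists (muscle, white adipocyte, hepatocyte, kidney, Schwann cell, sympathetic nerve, macrophage, endothelial, erythroid, B cell, epithelium, sex-linked) were chosen with earlier results of these data known. Genes named beside the members were the 20 with the highest and 3 with the lowest median rho, the 5 nearest to each member, and listed genes. Of the adrenergic and B cell lists, 1 gene each is not reported here.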

Additional observations from a re-analysis of the deposited data

Results flagged for a closer look

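The male minus female difference of Ucp1 passed a test for variation across generations (edgeR interaction test, adjusted p = 4.52e-05). It ran from -6.30 on the log2 scale (SE 0.84) in generation 18 to -0.47 (SE 0.65) in generation 23. Levels of Ucp1 by sex and generation were known when it was chosen, so the test is not independent of that choice. Without both DO511 and DO532, the 2 males of generation 23 with the most Ucp1, the adjusted p was 0.1, and limma on the deposited scores gave 1.00.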

How the results depend on the processing

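Where they were fitted, the sex differences of the members kept their direction except with the white adipocyte score as covariate. There Cidea turned to 0.17 and Otop1 to 0.071. Slc27a2 was not fitted in single generations, nor Kng2 in generations 17, 18 and 19 alone, and neither with a minimum count of 50. Sex helped to choose the members, so no calls between the sexes are counted for them. Of the other brown fat genes, 39 in all libraries, 22, 23, 19, 20 and 19 passed in generations 17, 18, 19, 21 and 23 alone and 18, 18, 25 and 17 in blocks 1, 2, 3 and 5 alone. Fits of single generations or blocks hold fewer samples. Over all genes they called 3859 to 4614 in single generations and 3698 to 5381 in single blocks, against 10362. The 5381 were in block 4 alone, where the count of the other brown fat genes lay nearer to the 39 than in the fits listed. Between generations, 2 members passed with a minimum count of 50 (Dio2 and Ucp1; Slc27a2 and Kng2 were then not tested), with the white adipocyte score (Dio2 and Slc27a2) and without DO268 (Dio2 and Ucp1). With that score Slc27a2 was highest in generation 17, which holds DO022, and this fit was not run without DO022. The cause was not tested. The interaction passed for 0 members with limma on the deposited scores, which called 0 of 20612 genes against 100 by edgeR, and for 0 without DO511 and DO532. Between blocks 0 passed with limma. The median share of animals, 16.7% at 1 CPM, was 42.4% at 0.5 CPM, 99.8% at 0.1 CPM and 99.2% at 10 or more counts. The median correlation (Spearman rho) of 0.18 over all pairs was 0.33 as Pearson r on log2(CPM + 0.1), 0.25 in females, 0.072 in males and 0.088 in block 1. No paired analysis was possible because every animal gave 1 library and no number is shared between groups. Low counts limit Slc27a2 and Kng2 most.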
